A study of Mus musculus with 4 samples.

Results

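Red cells of the mouse host were found among cells sorted as human leukocytes from the blood of humanised mice, and their transcripts are described here. Erythroid barcodes were chosen by measured values: over 50% of a barcode's unique molecular identifiers (UMIs, each standing for 1 captured RNA molecule) lay on mouse (mm10) genes, and the adult globin genes Hbb-bs, Hbb-bt, Hba-a1 and Hba-a2 together held over 50% of those mouse UMIs. This left 2146 of the 22830 barcodes of the series. Of these, 1350 came from naïve, 406 from sham and 390 from SCI blood, with 0 of 231 barcodes of the SCI cord library. The remaining mouse barcodes of blood, called other mouse barcodes below, numbered 61, 1584 and 840.

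The study profiled human immune cells in huNSG-SGM3 mice. This immunodeficient MloySzJ strain has a NOD.Cg background, the alleles Prkdcscid and IL2rgtm1Wjl, and the transgene Tg(CMV-IL3,CSF2,KITLG)1Eav, in which the CMV promoter drives the human cytokines IL3, CSF2 and KITLG. All hosts, naïve ones included, carried these alleles, were irradiated as newborns and were engrafted with human CD34+ stem cells. The naïve library came from male hosts that had no treatment, the sham library from male hosts with a T9 laminectomy, and the SCI library from male and female hosts with a severe T9 contusion. Operated hosts were sampled 7 days post-surgery and had also received buprenorphine and gentamycin; the labels give an age of 15 weeks for all. Blood was treated with red cell lysis buffer and live cells stained for human CD45 were sorted, so that erythroid cells of the host were what the lysis and the gate left behind. Each condition was 1 library of cells pooled from different animals, there are no replicates, no test between conditions was possible, and host sex and SCI cannot be told apart. All intervals below are 95% intervals for counting error only; they cover neither the spread between animals nor that between cells.

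Red cells lose their nucleus at the end of erythropoiesis and enter the circulation as reticulocytes, which still carry RNA, ribosomes and mitochondria. Over the following days these are cleared by autophagy and the ubiquitin system while haemoglobin is completed from the remaining globin mRNA, and transferrin receptor leaves the surface. The transcripts that persist longest are those of globins, haem synthesis, ferritin, the membrane skeleton and protein degradation, which is why such genes serve as markers of late erythroid cells.

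The promoters of the genes on which the account turns are shown for the 250 bases before the annotated start, 5′ to 3′ on the strand of the gene (RefSeq, GRCm38.p6): 3 adult globins, Alas2 as the erythroid enzyme, and Isg15 and Rsad2, the interferon-response genes that varied between libraries. Capitals mark matches on either strand to AGATAA (bound by GATA factors), CACCC (bound by erythroid Krüppel-like factors), the promoter box CCAAT, the TATA-box letters TATAA and a pair of GAAA with 2 bases between (an interferon-response motif).
Hbb-bs (chr7:103827929-103828178, minus strand): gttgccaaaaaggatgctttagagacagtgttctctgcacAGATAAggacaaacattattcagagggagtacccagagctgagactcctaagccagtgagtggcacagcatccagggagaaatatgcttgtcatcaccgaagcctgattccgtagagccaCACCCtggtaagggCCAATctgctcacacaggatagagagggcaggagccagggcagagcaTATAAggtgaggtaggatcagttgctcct
Hbb-bt (chr7:103813924-103814173, minus strand): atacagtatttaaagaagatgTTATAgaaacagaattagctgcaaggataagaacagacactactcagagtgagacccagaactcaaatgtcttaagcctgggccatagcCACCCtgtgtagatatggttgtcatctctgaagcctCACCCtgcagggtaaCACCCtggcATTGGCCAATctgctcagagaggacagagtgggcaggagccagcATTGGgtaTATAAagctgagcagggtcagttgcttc
Hba-a1 (chr11:32283422-32283671, plus strand): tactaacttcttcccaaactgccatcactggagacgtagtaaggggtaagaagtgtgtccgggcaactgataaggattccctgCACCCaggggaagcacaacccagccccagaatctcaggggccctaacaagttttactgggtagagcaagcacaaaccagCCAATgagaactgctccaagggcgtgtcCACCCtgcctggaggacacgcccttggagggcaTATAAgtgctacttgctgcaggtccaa
Alas2 (chrX:150547167-150547416, plus strand): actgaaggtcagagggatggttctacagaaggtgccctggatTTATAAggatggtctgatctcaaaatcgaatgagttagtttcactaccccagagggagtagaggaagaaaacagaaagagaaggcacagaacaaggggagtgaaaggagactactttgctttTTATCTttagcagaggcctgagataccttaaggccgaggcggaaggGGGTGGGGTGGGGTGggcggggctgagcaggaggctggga
Isg15 (chr4:156200819-156201068, minus strand): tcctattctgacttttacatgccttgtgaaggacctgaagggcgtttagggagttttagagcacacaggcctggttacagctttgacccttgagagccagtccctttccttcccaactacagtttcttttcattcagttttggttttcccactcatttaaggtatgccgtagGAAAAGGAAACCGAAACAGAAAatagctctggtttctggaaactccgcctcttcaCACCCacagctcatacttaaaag
Rsad2 (chr12:26456453-26456702, minus strand): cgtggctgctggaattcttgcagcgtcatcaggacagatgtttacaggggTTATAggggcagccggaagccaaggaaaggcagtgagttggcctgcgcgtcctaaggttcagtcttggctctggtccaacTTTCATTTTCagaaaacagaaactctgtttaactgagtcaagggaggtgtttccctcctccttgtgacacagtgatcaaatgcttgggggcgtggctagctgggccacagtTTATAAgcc

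Each globin promoter held the CACCC motif as well as the CCAAT box and the TATAA letters, and Hbb-bs also held AGATAA. Alas2 held AGATAA on the opposite strand and 3 adjacent copies of CACCC, also on the opposite strand, 26 to 40 bases before the start. Isg15 held 3 overlapping copies of the GAAA pair between 57 and 78 bases before the start, and Rsad2 held 1 on the opposite strand, 111 to 120 bases before. Among 32851 mouse promoters of the same length, AGATAA occurred in 9.99%, CACCC in 52.0%, CCAAT in 33.8%, TATAA in 22.8% and the GAAA pair in 2.98%. A match describes letters in this window and no binding was measured.

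Libraries were of like depth over all barcodes, from 34161760 to 36487994 UMIs, whereas the erythroid barcodes themselves were shallow. Their medians were 2123.5, 3818.5 and 2697 UMIs in naïve, sham and SCI blood. Outside the 4 globins only 173, 285.5 and 214.5 UMIs per barcode remained at the median, and 274797, 151428 and 104484 in sum, so that genes of low level rested on few molecules. Depth per barcode thus differed between the conditions, and shares of cells are given below after thinning. Between libraries, 16, 16 and 5 barcode sequences were shared (naïve with sham, naïve with SCI and sham with SCI), and 0 of them were erythroid in both.

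The erythroid identity held in the genes that the rule did not use. Levels are given as CPM, UMIs per 1000000 mouse UMIs outside the 4 adult globins. Alas2, which makes the first and rate-limiting step of erythroid haem synthesis, stood at 29487, 25511 and 28818 CPM in naïve, sham and SCI blood, against 0, 11.6 and 2.09 CPM in other mouse barcodes. Mkrn1, a ubiquitin ligase abundant in late erythroid cells, stood at 28585, 24844 and 25516 CPM, against 461, 237 and 287 CPM. All 6 measured erythroid markers outside globins were higher than in other mouse barcodes in each library. Against a background of 53.1% (597 of 1124 genes compared), 9 of 9 haem synthesis genes, 5 of 5 iron genes, 14 of 15 membrane genes and 12 of 12 terminal erythroid genes were higher in erythroid barcodes of all 3 libraries, and 0 of 7 neutrophil markers were. Other lists fell below the background: glycolysis with 1 of 4, mitochondrially encoded with 4 of 9 and ribosomal protein with 34 of 78 genes. The interferon list had 3 of 9 and the erythropoietin-response list 0 of 1. The rule made this split, and these counts describe it without a test.

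Few barcodes of naïve and SCI blood lay near the globin limit. The lowest globin share of a member was 66.7%, 51.6% and 56.8% in naïve, sham and SCI blood, and the highest of a mouse barcode just outside was 0.930%, 49.5% and 29.4%. Sham blood filled the gap, with 9 members between 50% and 70% and 5 mouse barcodes between 30% and 50%. The lowest mouse share of a member was 52.3%, 50.1% and 51.0%, and the highest below the limit was 49.8%, 49.9% and 48.2%. Between 40% and 50% mouse UMIs the 3 libraries had 23, 7 and 9 barcodes, and between 50% and 60% they had 5, 3 and 4 members.

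**Figure D1:**
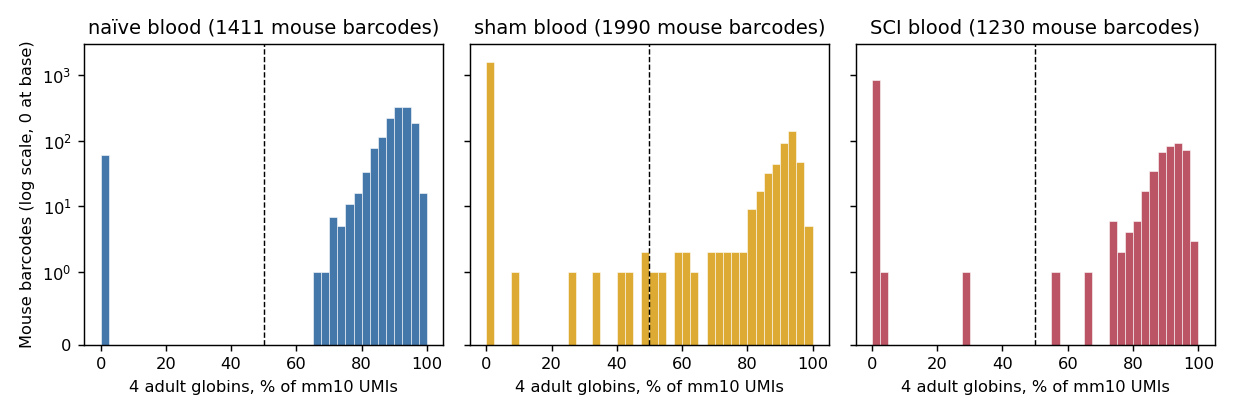
Number of mouse barcodes (y axis, log scale) by the percentage of their mm10 UMIs on the 4 adult globin genes (x axis), with 1 panel for each blood library and a dashed line at the 50% of the rule. Mouse barcodes formed a group near 0 and another above 80%, with 9 sham members but 2 members of each other library between 50% and 70%.

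The members of intermediate globin share in sham blood also carried neutrophil transcripts. UMIs of at least 3 of 15 neutrophil markers were found in 10 sham barcodes (2.46% of members), 1 SCI barcode (0.256%) and 0 naïve barcodes. The 10 sham barcodes held between 4990 and 8553 mouse UMIs, with a globin share between 51.6% and 71.2%, and included all 9 sham members at or below 70%. They held 3877 of the 4008 neutrophil-marker UMIs of sham members (96.7%) and 16.0% of all non-globin UMIs there. In SCI blood the single such barcode held 73 of 138 neutrophil-marker UMIs and 1567 of 104484 non-globin UMIs, and naïve members had 10 neutrophil-marker UMIs in all. Across whole libraries neutrophil markers made up 0.00364%, 2.65% and 0.132% of non-globin UMIs of members, and 10.0%, 12.9% and 15.2% in other mouse barcodes. Basophil, mast cell and dendritic cell markers had 0 UMIs in any member, and the platelet list made up 0.127%, 0.0885% and 0.0919%. The rule does not tell a single cell from a barcode that holds more than 1 cell, and doublets were not called. These barcodes are referred to as neutrophil-marker barcodes, and the main comparisons with sham blood are given with and without them. Bins of globin share above 80% hold none of them, and the remaining sham values include them unless stated.

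Erythroid barcodes were most frequent in naïve blood. They made up 16.6% of naïve barcodes (15.8 to 17.4, exact Clopper-Pearson interval), 5.83% of sham barcodes (5.29 to 6.41) and 5.19% of SCI barcodes (4.70 to 5.72). The naïve share stood above both others by more than counting error, and the intervals of sham and SCI blood overlapped. Of mouse barcodes alone, the shares were 95.7% (94.5 to 96.7), 20.4% (18.7 to 22.2) and 31.7% (29.1 to 34.4). These shares depend on red cell lysis and on the sort for human CD45, and do not measure red cells in blood.

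Globin transcripts took 90.1%, 89.9% and 90.3% of the mouse UMIs of members in naïve, sham and SCI blood, a value that the rule bounds from below. Hbb-bs, an adult beta globin gene on chromosome 7 (GRCm38, GENCODE interval chr7:103826534-103828096, minus strand), alone took 44.7%, 43.5% and 44.5%. Hba-a1, an adult alpha globin gene on chromosome 11 (chr11:32283511-32284465), took 30.1%, 30.99% and 30.6%. Hbb-bt, the second adult beta gene, took 14.9%, 15.0% and 14.8%, and Hba-a2 0.445%, 0.444% and 0.422%. GENCODE and RefSeq place the starts of some genes differently, and the promoters printed for Hbb-bs, Hba-a1 and Alas2, taken before the RefSeq start, overlap the GENCODE intervals of these genes.

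The balance between globin chains was close in the 3 libraries. Alpha genes held 33.9%, 35.0% and 34.4% of globin UMIs, and Hbb-bt 24.97%, 25.6% and 24.9% of beta-globin UMIs. Individual barcodes varied more than libraries did: the Hbb-bt share of beta globin ran from 9.18% at the 10th percentile to 30.9% at the 90th in naïve blood, and from 4.44% to 31.5% in SCI blood. The low level of Hba-a2 is uncertain, since the Hba-a1 and Hba-a2 transcripts share an identical run of 415 bases that ends 123 and 139 bases before their 3′ ends, and reads within it cannot be assigned to either gene. For Hbb-bs and Hbb-bt the run was 430 bases, ending 159 and 160 bases before the ends.

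Globins outside the adult 4 were scarce. Hbq1b and Hbq1a, the theta globin genes, stood at 801, 872 and 794 CPM and at 506, 409 and 507 CPM. The embryonic gene Hbb-y had 6, 2 and 1 UMIs, and Hba-x, Hbb-bh1 and Hbb-bh2 had 0. Adult globin RNA also lay outside erythroid barcodes, where it made up 0.106%, 0.342% and 0.0862% of mouse UMIs in other mouse barcodes and 65.1%, 19.2% and 23.2% of the few mouse UMIs in human barcodes.

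Outside globins the most abundant transcript was Ftl1, the ferritin light chain that stores iron, at 69517, 57262 and 77342 CPM. Without the neutrophil-marker barcodes sham stood at 64702 and SCI at 78257. Gm42418, a long non-coding RNA on chromosome 17 that overlaps a ribosomal RNA locus, followed at 40827, 37384 and 37661 CPM, and its counts may include ribosomal RNA. Then came Alas2, Mkrn1 and Fth1, the ferritin heavy chain, at 27340, 23873 and 28827 CPM. Without the neutrophil-marker barcodes sham blood held 29545 CPM of Alas2, 28516 of Mkrn1 and 25340 of Fth1. Bpgm, which makes the bisphosphoglycerate that lowers the oxygen affinity of haemoglobin, stood at 24214, 22361 and 19257 CPM, and at 25702 CPM in sham and 19530 CPM in SCI blood without those barcodes. These are counts of 3′ ends and were not divided by transcript length.

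Alas2, Bpgm, Fam213a, Car2, Fech, Slc4a1, Cdr2 and Ube2l6 were among the 10 transcripts that set erythroid barcodes furthest apart from other mouse barcodes. In the library where this ratio was smallest, Alas2 was 2180 times and Bpgm 1437 times as high as in other mouse barcodes. These ratios had 0.5 counts added to each sum. For Bpgm the value is that of naïve blood, at 11.2 CPM in only 61 other mouse barcodes, and it depends on the added counts. Ftl1, Fth1, Tpt1 and H3f3a were high in both kinds of barcode.

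**Figure D2:**
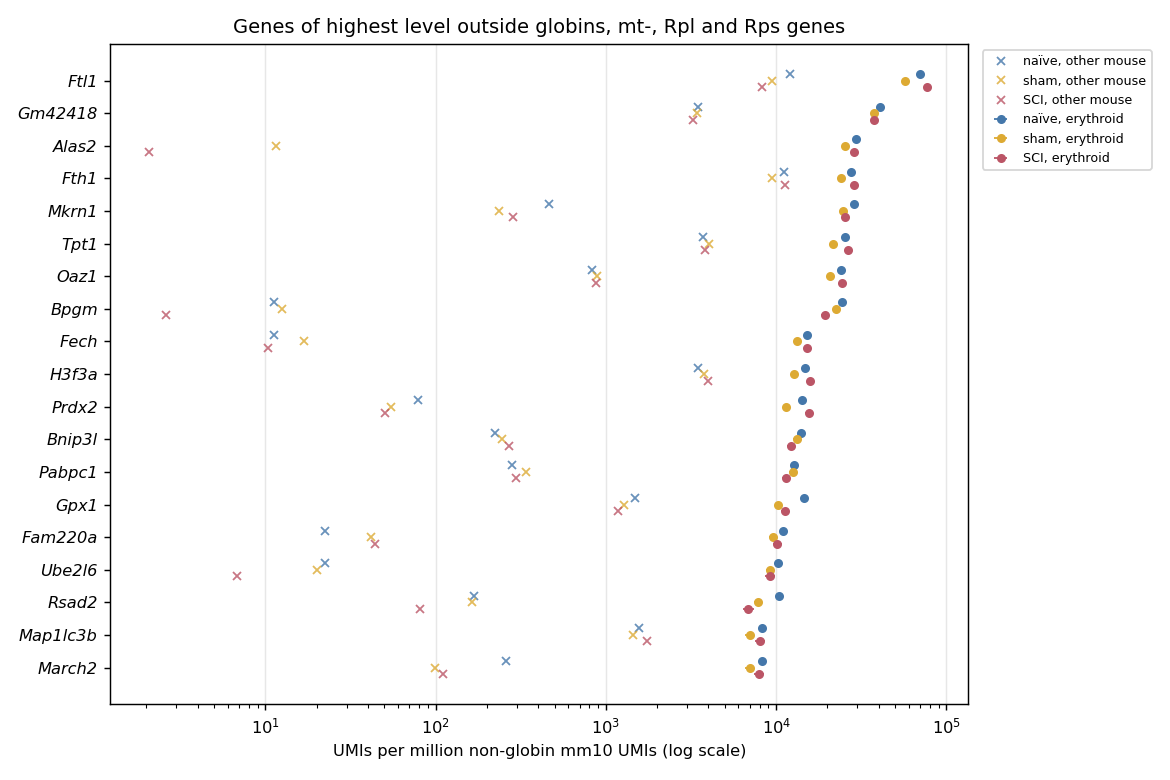
Level of the most abundant genes outside globins, mitochondrially encoded and ribosomal protein genes, in CPM (log axis). Circles are erythroid barcodes of each blood library with 95% intervals for counting error, crosses are other mouse barcodes, and the naïve value of Alas2 in other mouse barcodes is 0 and not drawn. Alas2, Bpgm and Fech were lower by over 100-fold in other mouse barcodes, whereas Ftl1, Fth1, Tpt1 and H3f3a were less far apart.

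Haem synthesis transcripts made up 6.08%, 5.36% and 5.93% of non-globin UMIs in naïve, sham and SCI blood, and 6.17% in sham and 6.01% in SCI blood without the neutrophil-marker barcodes. Alas2 and Fech, which inserts iron into the porphyrin ring, were close in all 3 libraries: Fech stood at 15106, 13320 and 15208 CPM. Alad, the second enzyme of the pathway, stood apart in SCI blood, with 65, 24 and 59 UMIs and a log2 ratio of SCI over naïve of 1.26 (0.72 to 1.79). These 59 UMIs came from 31 of the 390 SCI members, 13 of them from a single barcode. Cpox, a later enzyme, had 34, 19 and 5 UMIs and a log2 ratio of SCI over naïve of -1.25. Of 9 pathway genes compared, Alad and Cpox alone were past 2-fold in SCI over naïve, where 10.6% of all genes compared were, and 0 were in sham over naïve, where 15.6% of all genes were. Without the neutrophil-marker barcodes 0 of 9 were past 2-fold in sham over naïve, against 3.98% of all genes.

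Iron transcripts made up 10.0%, 8.38% and 10.9%, and were nearly all ferritin. The sham value was 9.30% without the neutrophil-marker barcodes, still below both others. Tfrc, the transferrin receptor that brings in iron and is lost as reticulocytes mature, was low throughout, with 76, 29 and 13 UMIs or 277, 192 and 124 CPM. Its log2 ratio of SCI over naïve was -1.11 (-2.13 to -0.29). After thinning each barcode to 1000 mouse UMIs, the share with a Tfrc UMI was 1.90% (1.18 to 2.90), 2.17% (0.941 to 4.23) and 0.880% (0.182 to 2.55). These shares rest on 21, 8 and 3 barcodes, their intervals overlap, and 3 is the limit used for a count of 0.

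Membrane and skeleton transcripts made up 1.57%, 1.39% and 1.45%. Slc4a1, the anion exchanger band 3, stood at 3672, 3203 and 2967 CPM. Of 15 genes compared, 1 was past 2-fold in sham over naïve (Aqp1, the water channel, with 21 and 5 UMIs) and 0 in SCI over naïve, against 15.6% and 10.6% of all genes. Without the neutrophil-marker barcodes 1 of 15 was past 2-fold in sham over naïve, against 3.98% of all genes.

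Transcripts for the removal of organelles and proteins were abundant. Bnip3l, the receptor that directs mitochondria to autophagy in reticulocytes, stood at 14054, 13181 and 12212 CPM, and Ube2l6, a conjugating enzyme for ubiquitin and ISG15, at 10317, 9153 and 9226 CPM. The organelle list made up 3.16%, 2.86% and 2.85% and the ubiquitin list 6.39%, 5.54% and 5.54% of non-globin UMIs. Without the neutrophil-marker barcodes they made up 3.25% and 6.30% in sham and 2.89% and 5.62% in SCI blood, with log2 ratios of SCI over sham of -0.17 (-0.23 to -0.10) and -0.17 (-0.21 to -0.12). The antioxidant enzymes Prdx2 and Gpx1 stood at 14181, 11484 and 15534 CPM and at 14625, 10289 and 11255 CPM, and the redox list made up 4.48%, 3.59% and 4.26%. Sham values without those barcodes were 15107 CPM for Bnip3l, 13095 CPM for Prdx2, 11436 CPM for Gpx1 and 4.02% for the redox list.

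Transcripts of nucleated erythroid precursors were at or near the lower limit. Klf1, the master regulator of globin genes, had 1, 0 and 1 UMIs, Gata1 had 6, 5 and 0, Top2a had 0, 1 and 1 and Cdk1 had 1, 0 and 0. Kit, the stem cell factor receptor, and Epor, the erythropoietin receptor, had 0 UMIs in all libraries. Ube2c, a conjugating enzyme of mitosis, was the exception at 2773, 2344 and 2354 CPM and was found in 409, 172 and 119 members, whereas Mki67 had 31, 18 and 14 UMIs. Lmo2, the most abundant of the erythroid regulators, had 132, 68 and 42 UMIs. The precursor and proliferation list made up 0.319%, 0.269% and 0.282% of non-globin UMIs and the regulators 0.0808%, 0.0852% and 0.0641%. Erythropoietin-response genes made up 0.0200%, 0.0396% and 0.0182%, with the sham value at 0.0181% without the neutrophil-marker barcodes.

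Mitochondrially encoded transcripts made up 3.82%, 3.82% and 4.11% of non-globin UMIs. Without the neutrophil-marker barcodes sham stood at 4.35% and SCI at 4.15%, so that the log2 ratio of sham over naïve went from 0.00 to 0.19 and that of SCI over sham from 0.11 to -0.07. Ribosomal protein transcripts made up 9.65%, 8.84% and 11.2%, and 9.86% and 11.3% in sham and SCI blood without those barcodes. The log2 ratio of SCI over naïve was 0.22 (0.19 to 0.25) for ribosomal protein transcripts, and -0.02 with the TMM scaling described below.

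Thinned to 1000 mouse UMIs, which kept 1103, 369 and 341 members, the median number of genes outside globins was 55, 50 and 52 per barcode (82, 120.5 and 94.5 before thinning). Alas2 was found in 92.8%, 91.9% and 93.5% of thinned barcodes. The shares for Bpgm were 79.1%, 72.4% and 66.3% and for Mkrn1 87.8%, 84.3% and 77.1%. Alas2 thus stood close in the 3 libraries, and Bpgm and Mkrn1 were found least often in SCI blood. Without the neutrophil-marker barcodes the sham shares were 92.2%, 72.4% and 84.1% for Alas2, Bpgm and Mkrn1. In human barcodes, which should lack these mouse transcripts, Bpgm and Mkrn1 were found in between 0.493% (Bpgm in SCI blood) and 3.01% (Mkrn1 in naïve blood) before thinning.

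Erythroid barcodes of higher globin share carried other transcripts beside the globins. Members were ordered by globin share, which the rule used, and only non-globin genes are described. In naïve blood, mitochondrially encoded transcripts made up 4.12% of non-globin UMIs at a globin share of 80 to 90% (453 barcodes), 3.102% at 90 to 95% (656) and 1.62% above 95% (200). The same order was seen in sham blood, with 5.17%, 3.52% and 2.26%, and in SCI blood, with 4.60%, 3.18% and 1.44%. Redox and membrane transcripts had this order as well, at 5.42%, 3.30% and 1.37% and at 1.82%, 1.12% and 0.769% in naïve blood.

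Iron and haem transcripts had the opposite order in each library. In naïve blood iron transcripts made up 8.49%, 12.3% and 17.2% across the bins and haem transcripts 5.17%, 7.32% and 10.5%. Ribosomal protein transcripts had no such order in naïve blood, at 9.60%, 9.36% and 11.6%. Globin share moved with depth: between the 338 shallowest and the 338 deepest naïve members the median globin share went from 94.0% to 89.2%. Gm42418 went from 12.99% to 2.20% of non-globin UMIs and human UMIs from 1.70% to 0.534% between the same members, and the part of depth in these orders was not tested.

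**Figure D3:**
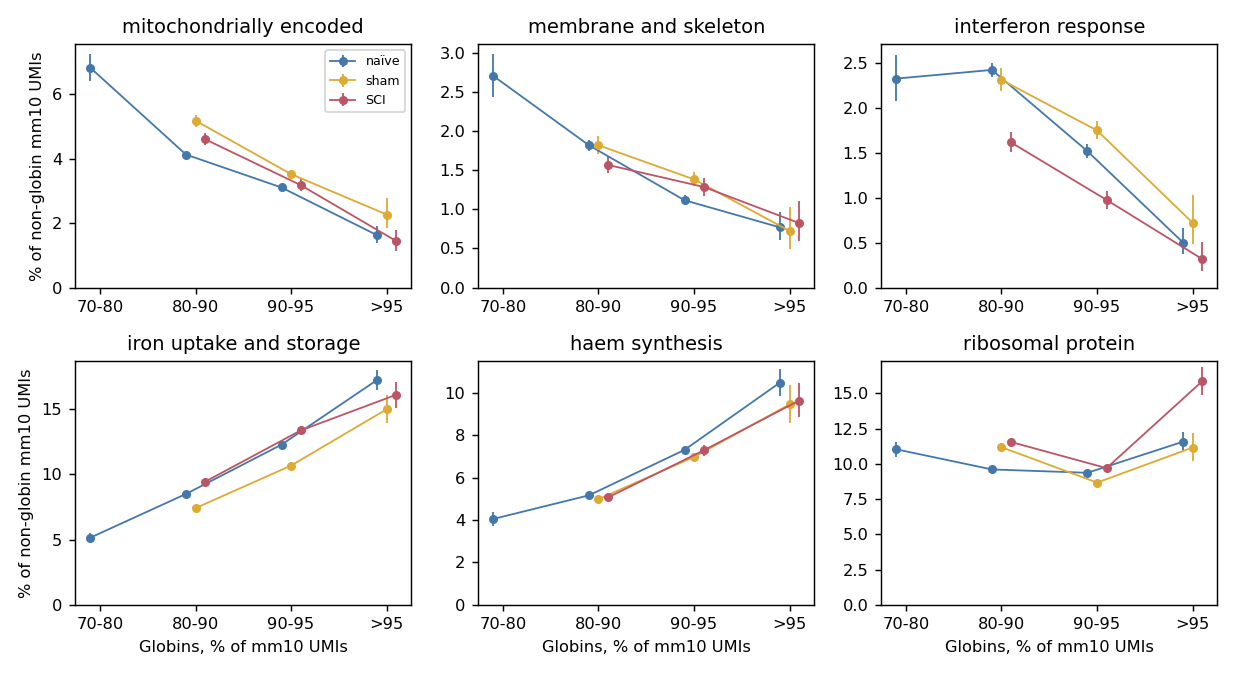
Share of non-globin mm10 UMIs (y axis, percent) held by gene lists in erythroid barcodes binned by their globin share (x axis), for each blood library, with 95% intervals for counting error and bins of at least 20 barcodes only. From 80 to 90% upwards, mitochondrially encoded, membrane and interferon-response transcripts were lower, and iron and haem transcripts higher, in bins of higher globin share in all 3 libraries.

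Most genes past 2-fold between sham and naïve blood were past it with the neutrophil-marker barcodes and not without them. Among 1004 genes with at least 20 UMIs over both libraries, 157 (15.6%) had a ratio of at least 2-fold, with 136 (13.5%) higher and 21 (2.09%) lower in sham blood. Of the 136 genes, 132 were also higher in the other mouse barcodes of sham blood than in its erythroid barcodes. Among all 1004 genes compared, 386 were. S100a8 and S100a9, calcium-binding proteins of neutrophils, led with 1 and 1201 UMIs and with 5 and 2370 UMIs in naïve and sham members, log2 ratios of 10.51 (interval from 8.61) and 9.61 (from 8.52).

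Without the 10 barcodes, 880 genes were compared and 16 were higher and 19 lower, which is 3.98%. Of the 136 genes, 9 were still past 2-fold and 107 had too few UMIs to be compared. Neutrophil transcripts were fewer but still higher in sham blood, with 131 UMIs against 10 in naïve blood. Log2 ratios were 6.07 (4.08 to 11.97) for S100a8 and 4.75 (3.58 to 6.54) for S100a9. In human barcodes of naïve, sham and SCI blood, neutrophil markers made up 1.38%, 12.7% and 12.2% of the mouse UMIs outside globins. S100a9 was found in 0.611%, 30.1% and 18.0% of those barcodes, which should lack it. The source of these transcripts in members was not tested. With genes limited to a sum of 100 counts or more and a level of 100 CPM in either library, B2m, the light chain of class I molecules, led with 62 UMIs in naïve and 45 in sham members and a log2 ratio of 0.65 (0.06 to 1.23). Necap2 followed with 66 and 45 UMIs and 0.56 (-0.02 to 1.13), then Cox7b, a subunit of cytochrome oxidase, with 204 and 136 UMIs and 0.53 (0.20 to 0.85), and Ctla2a was lowest with 344 and 91 UMIs and -0.80 (-1.16 to -0.47).

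No erythroid list stood far from naïve blood in sham blood once these barcodes were left out. Haem synthesis went from a log2 ratio of -0.18 to 0.02, the ubiquitin list from -0.21 to -0.02, membrane transcripts from -0.17 to 0.00 and organelle transcripts from -0.14 to 0.04. Iron and redox transcripts kept lower values of -0.11 (-0.14 to -0.07) and -0.16 (-0.21 to -0.11). Terminal erythroid transcripts stood at -0.08 (-0.13 to -0.04) and the glycolysis list at 0.09 (0.03 to 0.15). Mitochondrially encoded transcripts stood further from 0, at 0.19 (0.14 to 0.23).

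SCI blood was compared with naïve blood in the same way. Of 866 genes compared, 92 (10.6%) were past 2-fold, with 51 (5.89%) higher and 41 (4.73%) lower in SCI blood, and the median log2 ratio over all genes was 0.04. Many of these genes had few UMIs, and 61 of the 92 had an interval that leaves out 0. Without the neutrophil-marker barcode 48 of 859 genes were higher and 47 lower (11.1%), of which 45 and 39 were among those of all members. With TMM factors, which scale by genes of middling ratio, all log2 ratios of this comparison moved by -0.24, and 27 genes were higher and 74 lower. The same scaling moved sham over naïve by -0.13 and SCI over sham by -0.11. Ratios below are without TMM factors unless stated, and they depend on this choice. Where a distance from the all-gene median is given, that distance does not.

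Besides S100a9, with 5 and 95 UMIs, the genes named as highest in SCI blood were Alad, Hint1, Sec61b and Uqcr10. Of the 95 S100a9 UMIs of SCI members, 51 lay in 1 barcode. Mouse S100a9 was also found in 18.0% of human barcodes of SCI blood, against 0.611% in naïve blood. Hint1, a nucleotide hydrolase, had 84 UMIs in 79 naïve members and 74 in 55 SCI members, a log2 ratio of 1.21 (0.74 to 1.68). Sec61b, a subunit of the translocon of the endoplasmic reticulum, had 93 and 74 UMIs and 1.07, and Uqcr10, a subunit of respiratory complex III, had 62 and 47 UMIs and 1.00.

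The genes named as lowest were Acsl1, Ranbp10, Ifi27, Glrx and Bsdc1. Acsl1, which activates long-chain fatty acids, had 116 UMIs in 106 naïve members and 14 in 14 SCI members, a log2 ratio of -1.61. Ranbp10 had 122 and 23 UMIs and -0.99, and Glrx, glutaredoxin, had 217 and 43 UMIs and -0.93. Without the SCI neutrophil-marker barcode these values were -1.59 (-2.55 to -0.83), -0.97 and -0.91.

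By list, terminal erythroid transcripts made up 4.08% in naïve and 3.25% in SCI blood, a log2 ratio of -0.33 (-0.39 to -0.28), or -0.37 from the all-gene median. Of 11 genes compared, 3 had a ratio above 0 and 8 below, and 0 were past 2-fold, against 10.6% of all genes. The glycolysis list, nearly all Bpgm, stood at -0.29, with Bpgm itself at -0.33 and the median of the 3 genes compared at 0.72 without the neutrophil-marker barcode. The ubiquitin list stood at -0.21, with 12 of 14 genes below 0, and Mkrn1 itself at -0.16. Ftl1 stood at 0.15 (0.12 to 0.19), which turned to -0.09 with TMM factors, and iron transcripts at 0.12, which turned to -0.12. Ribosomal protein transcripts stood 0.18 above the all-gene median.

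Most genes lower by 2-fold in SCI over sham were likewise not counted as such without the neutrophil-marker barcodes. Most of the higher genes still were. Of 822 genes 162 (19.7%) were past 2-fold, 27 (3.28%) higher and 135 (16.4%) lower in SCI blood. Of the 135, 125 were higher in the other mouse barcodes of sham blood than in its erythroid barcodes. The number of all 822 genes that were so in sham blood is not given, and 278 were so in SCI blood. Without neutrophil-marker barcodes 20 of 674 genes were higher and 16 lower (5.34%), of which 16 and 12 were among those of all members. Of the 27 higher genes 2 had too few UMIs to be compared, and for the 135 lower ones this number is not given. Under the same limit on counts and CPM, Hint1 led at 1.08, followed by Rps27a, a fusion of ubiquitin and a ribosomal protein, at 0.93 and Rpl35 at 0.88. Isg15 was lowest of these at -0.91 (-1.07 to -0.77), followed by Glrx at -0.90, Gstm5 at -0.75 and Ifi27 at -0.73.

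Among lists, glycolysis transcripts, nearly all Bpgm, stood at -0.21 in SCI over sham and at -0.37 (-0.45 to -0.29) without neutrophil-marker barcodes, where 2 of the 3 genes compared were above 0. Iron transcripts stood at 0.38 and 0.24 (0.21 to 0.28). Haem synthesis at 0.15, membrane transcripts at 0.06 and mitochondrially encoded transcripts at 0.11 turned to -0.04, -0.10 and -0.07.

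**Figure D4:**
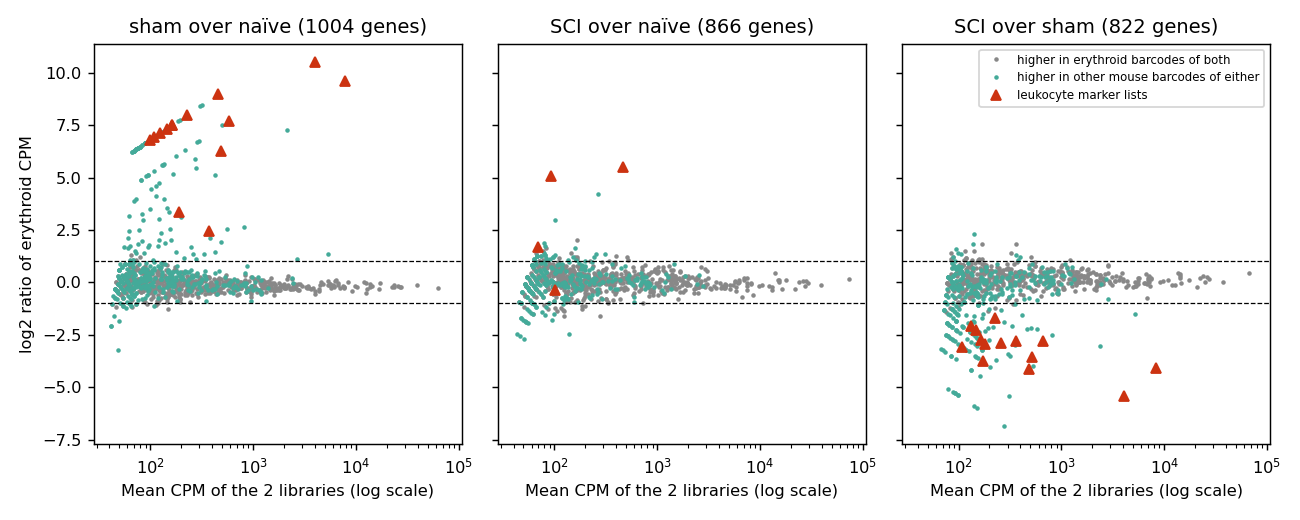
Log2 ratio of summed CPM in erythroid barcodes (y axis) against the mean CPM of both libraries (x axis, log scale), with 1 panel per comparison and dashed lines at a log2 ratio of 1 and -1. Grey genes are higher in erythroid barcodes of both libraries, teal genes are higher in other mouse barcodes of either, and red triangles are neutrophil, monocyte and general leukocyte markers, which stand at the top in sham over naïve and at the bottom in SCI over sham.

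Interferon-response transcripts were lower in SCI blood than in both other libraries. The list made up 2.02%, 1.83% and 1.27% of non-globin UMIs in naïve, sham and SCI blood, and 1.98% in sham and 1.29% in SCI blood without neutrophil-marker barcodes. Its log2 ratio of SCI over naïve was -0.67 (-0.76 to -0.58), or -0.71 from the all-gene median, and -0.65 without the neutrophil-marker barcode. That of SCI over sham was -0.52, and -0.62 (-0.72 to -0.52) without those barcodes. Sham over naïve stood at -0.14, and at -0.03 (-0.10 to 0.04) without them. The list was nearly all Rsad2, Isg15 and Ifi27. Of 6 genes compared in SCI over naïve 5 had a ratio below 0, and 2 were past 2-fold, against 4.73% of all genes that were lower by 2-fold. These 2 were Irf7, with 25, 16 and 1 UMIs in naïve, sham and SCI blood, and Ifit1, with 25, 1 and 2. Ifit1 was thus not lower in SCI than in sham blood, and both genes had few UMIs.

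Isg15, the ubiquitin-like protein attached to targets after interferon (chr4:156199424-156200818), had 2298, 1286 and 530 UMIs. Its levels were 8363, 8492 and 5073 CPM in naïve, sham and SCI blood, and 9715 and 5150 CPM in the operated groups without neutrophil-marker barcodes. SCI blood stood lowest, with a log2 ratio of -0.72 (-0.86 to -0.58) over naïve. Rsad2, or viperin, an antiviral enzyme (chr12:26442746-26456452), had 2858, 1188 and 715 UMIs or 10400, 7845 and 6843 CPM, with -0.60 (-0.72 to -0.49) in SCI over naïve and -0.20 in SCI over sham, or -0.35 (-0.48 to -0.21) without neutrophil-marker barcodes. Ifi27, also induced by interferon, stood at 972, 773 and 488 CPM. The promoters of Isg15 and Rsad2 printed above were the ones with the GAAA pair.

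The difference was seen in shares of cells and in each range of globin share, but intervals overlapped among the shallowest members. Thinned to 1000 UMIs, Isg15 was found in 31.3%, 31.2% and 20.5% of barcodes (38.4% and 49.8% in naïve and sham blood and 117 of 390 members in SCI blood before thinning) and Rsad2 in 49.6%, 42.8% and 32.6% (56.9%, 66.7% and 46.9%). Either gene was found in 60.02%, 55.8% and 41.9%, and in 55.4% and 42.1% in sham and SCI blood without neutrophil-marker barcodes. Single barcodes held up to 50, 79 and 52 Isg15 UMIs, so that counts within a library were uneven over cells. Mouse Isg15 UMIs were found in 0.655%, 1.23% and 0.637% of human barcodes, which should lack the gene, and in 18.0%, 40.8% and 24.2% of other mouse barcodes. By globin share of 80 to 90%, 90 to 95% and above 95%, the list made up 2.42%, 1.52% and 0.502% in naïve blood. The values were 2.31%, 1.75% and 0.723% for sham and 1.62%, 0.976% and 0.319% for SCI blood. SCI blood was lowest in each range, and in each library the share was lower at higher globin share over these ranges. At 70 to 80%, where naïve blood alone had 20 or more barcodes (39), it was 2.33%. By depth, the list made up 1.13% (0.997 to 1.28) in the 338 shallowest naïve members. It made up 1.43% (1.22 to 1.66) in the 102 shallowest sham and 1.06% (0.852 to 1.30) in the 98 shallowest SCI members. Rsad2 stood at 0.747%, 0.877% and 0.823% in these members. In the equally many deepest members the list made up 2.24%, 1.89% and 1.55%. The part of depth in the difference was not tested.

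Other mouse barcodes held less of Isg15, with 382, 485 and 258 CPM, and of Rsad2, with 169, 165 and 81.4 CPM. Most genes of the list did not share this. Of 9 compared, 3 were higher in erythroid barcodes of all 3 libraries, against 53.1% of all genes. Ifitm3 stood at 1708, 2323 and 1994 CPM in other mouse barcodes, against 189, 482 and 230 CPM in members. In other mouse barcodes the log2 ratio of the list was -0.66 for SCI over sham. It was -0.14 (-0.28 to 0.01) for SCI over naïve and 0.52 (0.38 to 0.66) for sham over naïve, the last 2 on 61 naïve barcodes. Isg15 there stood at -0.58 (-1.07 to -0.02) and Rsad2 at -1.09 (-1.82 to -0.18) in SCI over naïve. With 1 pool per condition, the differences between erythroid cells of SCI, sham and naïve hosts cannot be told apart from differences between the pools or between host sexes.

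**Figure D5:**
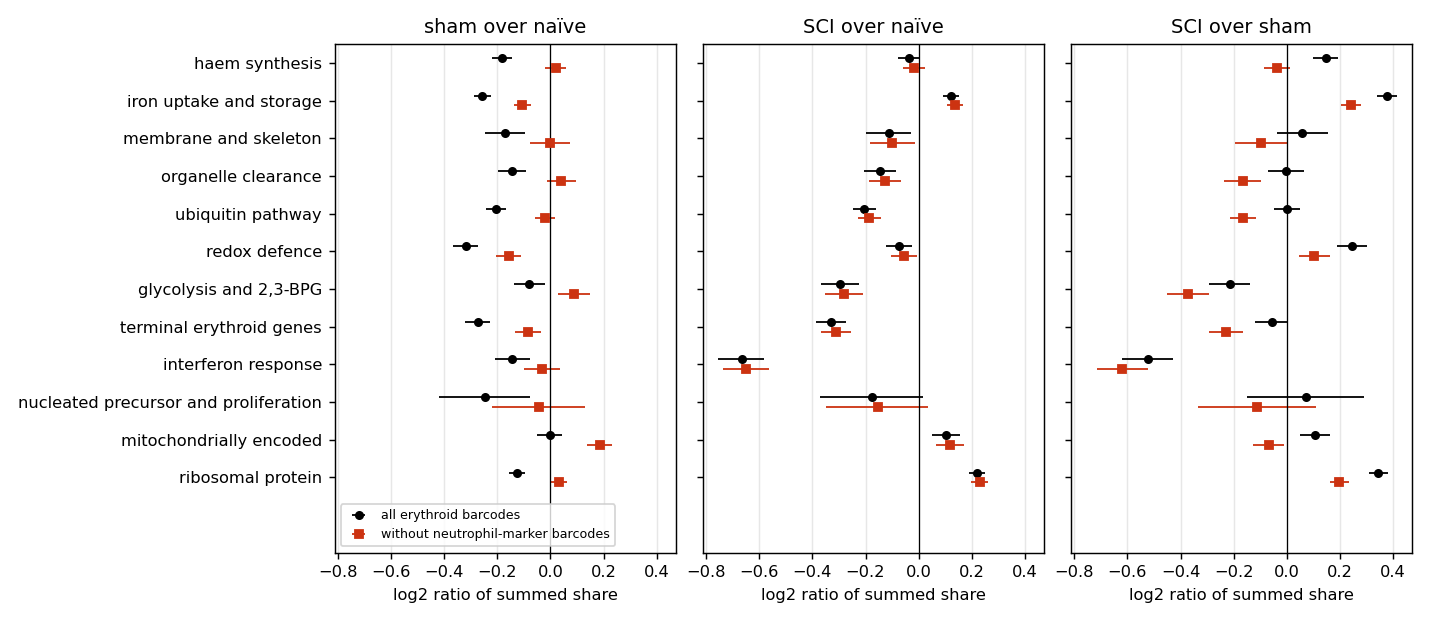
Log2 ratio of the share of non-globin UMIs held by each gene list (x axis), with 95% intervals for counting error, for the 3 comparisons. Black circles are all erythroid barcodes and red squares leave out neutrophil-marker barcodes. The interferon list stood at -0.67 in SCI over naïve and -0.52 in SCI over sham, further from 0 than the other lists drawn, and lists in the comparisons with sham shifted when those barcodes were left out.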

How the data were processed

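Droplet-based 3′ scRNAseq of sorted live huCD45+ cells was analysed in 4 libraries, 3 of blood (naïve, sham, SCI) and 1 of SCI cord. The authors aligned reads and counted UMIs with Cell Ranger 3.1.0 against the joined GRCh38 and mm10 genomes, with 33538 human and 31053 mouse genes, and deposited raw counts per gene and barcode without normalisation. Depth was 34161760, 36007208 and 36487994 UMIs in naïve, sham and SCI blood.

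From these counts, erythroid barcodes were selected by the rule given above, and their counts summed per library. The members and gene lists were chosen with earlier results of these data known. CPM is per 1000000 mouse UMIs outside the 4 adult globins. Log2 ratios had 0.5 counts added to each sum and used genes whose 2 sums came to 20 counts or more, and a ratio of 2-fold or more was counted. With 1 library per condition no test was made. Shares have exact binomial, ratios conditional exact binomial and levels exact Poisson intervals. Genes were named by rule: the cell markers, up to 5 genes of highest CPM per list, the 20 highest genes, the 10 of highest ratio to other mouse barcodes (at least 500 CPM), and the 5 highest and 5 lowest ratios per comparison (at least 100 counts and 100 CPM), with Xist and Y-linked genes left out. Some genes that the rule named are not reported here. Genes named outside the rule, or from the repeat without neutrophil-marker barcodes, were chosen after their values were seen. Doublets were not called. In their place, the 5% of members with most UMIs, or members with 3 or more neutrophil markers, were left out, and for the latter the named genes and lists were repeated, which was chosen after seeing the data. Other alternatives changed the rule, scaling, filter, pseudocount and thinning. Directions and intervals were tested on simulated Poisson counts, the model from which the intervals are built. Their coverage there therefore says nothing of UMIs that gather in single barcodes. Counts past 2-fold include low-count genes that pass by counting error. Scripts ran on Python 3.11.15 with pandas 2.3.3, scipy 1.17.1, numpy 2.4.6 and matplotlib 3.10.9, and with edgeR 4.0.16 for TMM factors only.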

Additional observations from a re-analysis of the deposited data

Results flagged for a closer look

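Adult globin RNA was also present in the SCI cord library, which enters no comparison. It held 21 UMIs on the 4 adult globin genes among 2702523 mouse UMIs, spread over 14 of 231 barcodes. This is above the limit that a count of 0 allows, and the highest globin share of a mouse barcode there was 0.0151%. None of 93 mouse barcodes was erythroid by the rule; 3 counts of 93, the limit used for a count of 0, would be 3.23%, and the exact interval ends at 3.89%.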

How the results depend on the processing

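Shares of erythroid barcodes kept within counting error under each rule tried. The number of genes past 2-fold was 157, 92 and 162 in sham over naïve, SCI over naïve and SCI over sham. It was 3049, 1670 and 3511 with genes of at least 1 count, and 18, 5 and 17 with at least 100 counts, as fewer or more genes of few counts enter. In the comparisons with sham it was 39 and 39 with globins over 70%, 80 and 97 without the 5% of members with most UMIs, and 35 and 36 without members with 3 neutrophil markers. The split of higher and lower genes in SCI over naïve was 51 and 41, and 56 and 24 with 2 counts added, 34 and 46 without the 5% of members with most UMIs.

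The log2 ratio of mitochondrially encoded transcripts in sham over naïve (0.00) was 0.18 with globins over 70%, 0.072 without the top 5% and 0.19 without neutrophil-marker barcodes. In SCI over sham (0.11) it was -0.064, 0.0036 and -0.068 under these, and 0.041 as a share of all mm10 UMIs. For ribosomal protein transcripts, shares of all mm10 UMIs gave -0.093, 0.19 and 0.28 in the 3 comparisons (-0.13, 0.22 and 0.35 otherwise). Sham over naïve was 0.016 with globins over 70% and 0.032 without neutrophil-marker barcodes, and SCI over sham 0.21 and 0.20. Genes per barcode were 82, 120.5 and 94.5 without thinning, against 55, 50 and 52. For single named genes 102 values moved beyond counting error and 397 did not. Among the values treated as main results, 29 moved and 64 did not. The cause was not tested. No paired analysis was possible because each condition had 1 library.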
